A study of Homo sapiens with 6 samples.

Results

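The genes described here are the replication-dependent histone genes, read by 57 probe sets that each carry exactly 1 gene symbol of the forms H2AC, H2BC, H3C or H4C with a number, or H1-1 to H1-6. These 57 were found among 33252 probe sets on the array, of which 19460 carry 1 symbol. They cover 6 genes of the linker histone H1, 14 of H2A, 16 of H2B, 8 of H3 and 13 of H4. By RefSeq, 49 lie on chromosome 6, 7 on chromosome 1 and 1 on chromosome 12. A further 20 probe sets list several symbols with at least 1 histone gene of this kind and were left out. The probe sets of H4C14 and H4C15 hold the same values on every array, so the 57 give 56 distinct readings.

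Expression was measured on 6 one-colour Affymetrix arrays of A2780, an ovarian cancer cell line, 96 hours after lentiviral infection. BMI1 shRNA cells carried 1 of 2 short hairpin RNAs against BMI1, which belongs to a Polycomb repressive complex, and were set against 1 BMI1 Ctrl array. FAL-1 shRNA cells carried 1 of 2 hairpins against FAL-1, a long non-coding RNA, and were set against 1 FAL-1 Ctrl array. Controls were infected too, with a control hairpin. All groups were given fresh medium 24 hours after infection and grew with 10% fetal bovine serum. Each hairpin was read on 1 array, so hairpins are the only replicates of a knockdown.

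Replication-dependent histone genes supply the core histones H2A, H2B, H3 and H4, around which DNA is wrapped, and the linker histone H1, which binds between nucleosomes. Their transcripts are made mainly in S phase, at nuclear structures called histone locus bodies, where NPAT and CASP8AP2 drive their transcription and processing. Most of these messages end in a stem-loop in place of a poly(A) tail, which is bound by SLBP, and they are degraded when DNA synthesis stops. The replication-independent variants, such as H3-3B and H2AZ1, are encoded by separate genes, mostly with ordinary polyadenylated messages.

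The values are log2 probe set summaries, with array medians between 6.94 and 7.09 over all probe sets. The probe set for BMI1 read 8.73 and 9.99 with the BMI1 hairpins, against 10.64 in BMI1 Ctrl, or 26.8% and 64.0% of that control. FALEC, the symbol of FAL-1, was not among the symbols annotated, so that knockdown was not checked. In limma's fit over 19461 probe sets, no probe set of any kind passed an adjusted p of 0.05 for either knockdown or for their difference, and 502, 587 and 157 had an unadjusted p under 0.05. Every histone member had an adjusted p of 0.9999 with BMI1 knockdown and 0.9991 with FAL-1 knockdown. With 2 residual degrees of freedom, the spread in limma's test comes from the hairpin pairs of both targets, moderated over all probe sets. It is taken to hold for the single controls. A limma p for either target therefore does not rest on the SD of that target's hairpins alone. The labels name no separate cultures. The 2 knockdown arrays of a target carry different hairpins, so their spread mixes hairpin and technical differences, which cannot be told apart. Of the markers listed for ovarian cancer lines, 5 of 11 (VIM, CDH2, KRT8, KRT18 and MKI67) had a mean level above the median of 7.57, and PAX8, WT1, MUC16, CDH1, EPCAM and KRT19 did not. Of 10 measured markers of other cell types, COL1A1, COL1A2, DCN, LUM and CD68 lay above it, and those of leukocytes and endothelium (PTPRC, CD3E, PECAM1, CDH5, VWF) did not. The log2 values of these 10 summed to 73.8 and 76.1 with the BMI1 hairpins, against 74.1 in BMI1 Ctrl, and to 78.0 and 79.2 with the FAL-1 hairpins, against 76.7 in FAL-1 Ctrl. With FAL-1 hairpin 2, 6 of the 10 were above FAL-1 Ctrl and 4 below it. CD68 read 9.23 and COL1A2 11.03 on that array, against 8.34 and 9.84 in FAL-1 Ctrl, whereas DCN at 9.78 and LUM at 10.57 were below the 9.94 and 10.65 of FAL-1 Ctrl. Of the ovarian line markers, 9 of 11 were above FAL-1 Ctrl with hairpin 2, among them KRT8 at 11.07, against 9.28, and KRT19 at 8.57, against 6.72. The part of these markers in the histone values was not tested.

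Most histone probe sets read lower with both hairpins of each target than in that target's control. With BMI1 knockdown, 42 of 57 were below BMI1 Ctrl with both hairpins, 5 were above it with both and 10 were split, where 30.8% of all probe sets were below and 32.9% above. The median log2 change over the members was -0.17 with hairpin 1 and -0.34 with hairpin 2, and the median of the hairpin means was -0.29 ± 0.12 (SD of the 2 hairpin medians), beside 0.01 over all probe sets. With FAL-1 knockdown, 46 of 57 were below FAL-1 Ctrl with both hairpins, 3 were above it with both and 8 were split, where 27.8% of all probe sets were below and 37.1% above. The medians were -0.13 with hairpin 1 and -0.89 with hairpin 2, and -0.54 ± 0.53 (SD, n = 2 hairpins) for the hairpin means, beside 0.03 over all probe sets. In a bulk sample, fewer cells in S phase and less histone RNA per cell cannot be told apart.

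The size of the shift differed between hairpins. Hairpin 2 read below hairpin 1 in 45 of 57 members for BMI1 and in 51 of 57 for FAL-1, beside 43.5% and 43.2% of all probe sets. FAL-1 hairpin 2 stood furthest out: 34 of 57 members were at least 1.5-fold below the control on that array, beside 7.01% of all probe sets, and it was the lowest of the 6 arrays in 29 members, beside 17.5% of all probe sets. With FAL-1 hairpin 1, only 2 members (H1-6 and H2AC15) were 1.5-fold lower, beside 1.63%, although 48 of 57 were below the control to some extent, beside 48.4% (52 of 57 with hairpin 2, beside 42.2%). H1-6 and H2AC15 were also the 2 members 1.5-fold lower with both FAL-1 hairpins, beside 0.632%. The FAL-1 median without hairpin 2 was -0.13, and without hairpin 1 it was -0.89. With BMI1, 4 members were 1.5-fold lower with hairpin 1 and 18 with hairpin 2, beside 3.2% and 3.86% of all probe sets, and the median was -0.34 without hairpin 1 and -0.17 without hairpin 2. Below BMI1 Ctrl to any extent were 46 members with hairpin 1 and 48 with hairpin 2, beside 52% and 45.9%. H4C4, H2AC14 and H1-3 were the 3 members 1.5-fold lower with both BMI1 hairpins, beside 0.879%. In the other direction, 3 members with BMI1 hairpin 1 and 1 with hairpin 2 were 1.5-fold higher, beside 1.75% and 1.96%, and 0 with FAL-1 hairpin 1 and 3 with hairpin 2, beside 0.951% and 4.12%. The hairpin with the deeper histone change was not the one with the lower BMI1 reading.

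**Figure D1:**
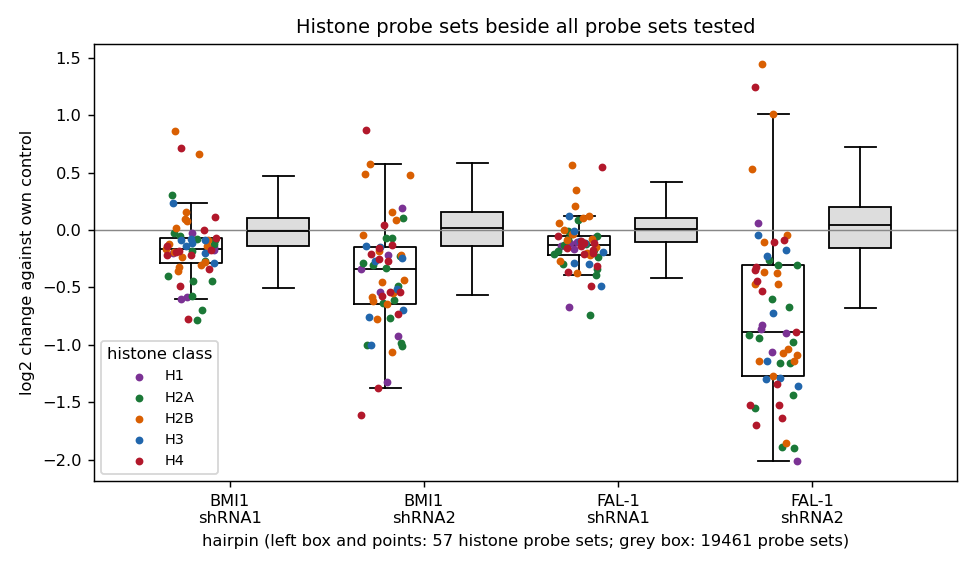
Log2 change of each of the 57 histone probe sets against its own control (points, coloured by histone class, with a box of median and quartiles and whiskers to the last value within 1.5 times the box height) beside the 19461 probe sets tested (grey box), for each of the 4 hairpins. Histone medians lie at -0.17 and -0.34 for the BMI1 hairpins and at -0.13 and -0.89 for the FAL-1 hairpins, while the grey medians lie near 0.

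The choice of control array also moved these values. FAL-1 Ctrl read above BMI1 Ctrl in 48 of 57 members, with a median difference of 0.26, beside 0.02 over all probe sets. With the control of the other target in place of the own one, the median was -0.55 for the BMI1 hairpins and -0.10 for the FAL-1 hairpins. All 4 hairpins were below their own control in 39 of 57 members, beside 14.1% of all probe sets. All 4 were above it in 3 members, H4C8, H2BC11 and H2BC12, beside 16.9% of all probe sets. The comparisons of the 2 targets share no array. Across the 57 members their mean changes had a Pearson correlation of 0.890 and a Spearman correlation of 0.854, against 0.558 and 0.462 across all 19461 probe sets. Between single hairpins, the Pearson correlation over members was 0.891 for hairpin 2 of both targets. With FAL-1 hairpin 1 it was 0.576 for BMI1 hairpin 1 and 0.567 for BMI1 hairpin 2. Across all probe sets these were 0.581, 0.308 and 0.230. These are descriptions across genes, which are not independent of each other and may share probe sequence.

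**Figure D2:**
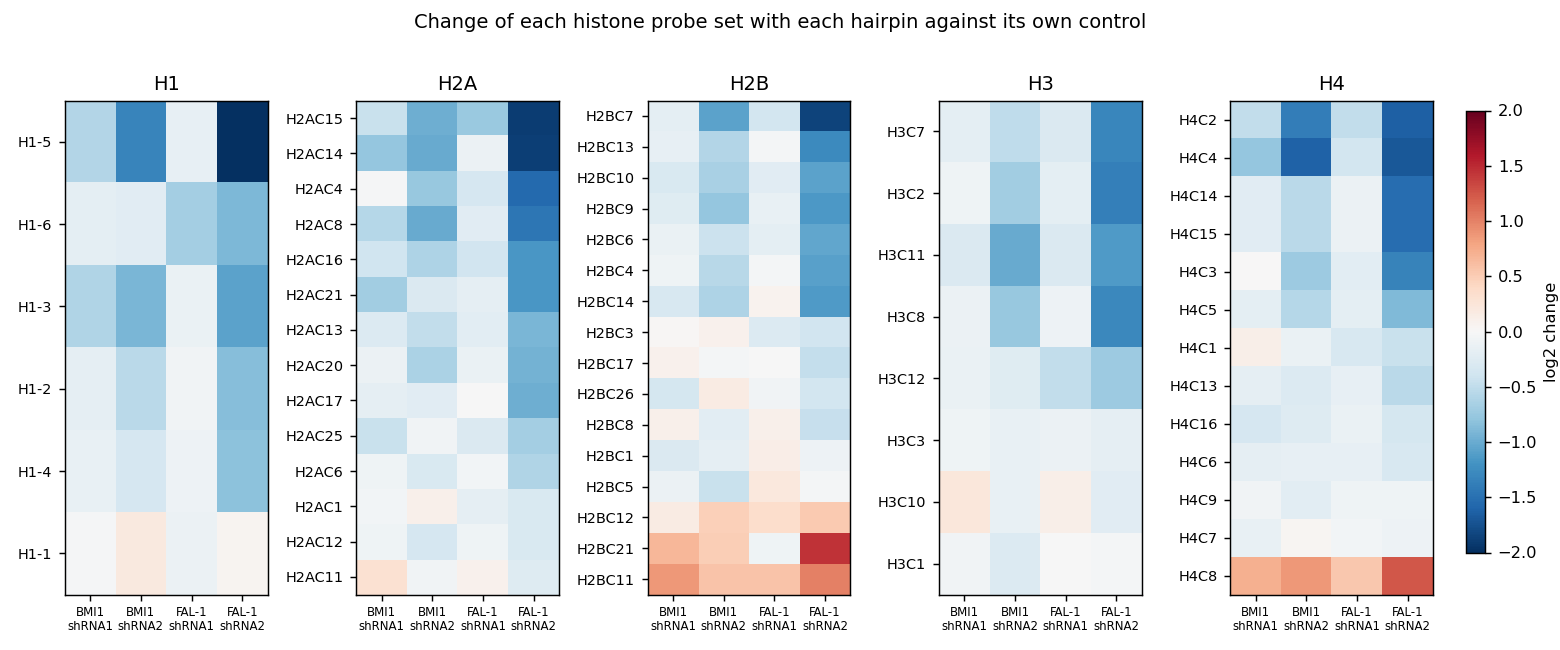
Log2 change of every histone probe set (rows, one panel for each class) with each of the 4 hairpins (columns) against its own control, in blue for lower and red for higher, on a scale that ends at -2 and 2. The column of FAL-1 hairpin 2 is the deepest blue, and H4C8, H2BC11 and H2BC12 are red across all 4 hairpins.

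Among the linker histones, 5 of 6 genes read below the control with both hairpins of each target. H1-5 had the widest spread of the class. Its probe set read 10.12 and 9.38 in BMI1 shRNA cells, against 10.70 in BMI1 Ctrl, and 10.32 and 8.47 in FAL-1 shRNA cells, against 10.49 in FAL-1 Ctrl. Every knockdown array was below both controls, with FAL-1 hairpin 2 far below the rest. The mean log2 changes were -0.95 ± 0.52 and -1.09 ± 1.31 (SD, n = 2 hairpins each), with unadjusted limma p of 0.312 and 0.256. H1-3 read 7.39 and 7.07 with the BMI1 hairpins against 7.98 in BMI1 Ctrl, and 7.91 and 6.99 with the FAL-1 hairpins against 8.05 in FAL-1 Ctrl. All 4 knockdown arrays were below both controls, FAL-1 hairpin 1 by the least, and the mean changes were -0.76 ± 0.23 and -0.60 ± 0.65 (SD, n = 2 hairpins each).

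The abundant somatic variants H1-2 and H1-4 showed smaller differences. H1-2 read 9.38 and 9.01 with the BMI1 hairpins against 9.55 in BMI1 Ctrl, and 9.84 and 9.06 with the FAL-1 hairpins against 9.91 in FAL-1 Ctrl. H1-4 read 13.33 and 13.13 against 13.47 for BMI1, and 13.35 and 12.62 against 13.45 for FAL-1. In both genes hairpin 2 was the lower of each pair, and FAL-1 hairpin 1 lay close to its control.

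H1-6, the testis linker histone, had the smallest p of the 57 members. It read 5.94 and 5.92 with the BMI1 hairpins against 6.14 in BMI1 Ctrl, and 6.23 and 6.01 with the FAL-1 hairpins against 6.90 in FAL-1 Ctrl. The FAL-1 change was -0.78 ± 0.16 (SD, n = 2 hairpins), with an unadjusted limma p of 0.0055 and an adjusted p of 0.9991. FAL-1 Ctrl was the single high array: against BMI1 Ctrl, the FAL-1 hairpins differed by -0.03. H1-1 read 5.67 and 5.89 against 5.70 for BMI1, and 5.67 and 5.84 against 5.78 for FAL-1, which are overlapping levels on a dim probe set.

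Promoter sequences of the H1 genes carry a known H1 box, searched as AAACACA on both strands in the RefSeq windows of 250 bases before to 50 after the gene start (GRCh38.p14). Such windows were at hand for 52 of the 57 members. The box was present in 6 of 6 H1 windows and in 7 of 52 histone windows, beside 5.64% of 35116 windows. The 120 bases before the start of H1-5, the linker histone with the largest mean difference, lie at chr6:27867589-27867708 on the minus strand of GRCh38.p14, with the H1 box in capitals.
H1-5: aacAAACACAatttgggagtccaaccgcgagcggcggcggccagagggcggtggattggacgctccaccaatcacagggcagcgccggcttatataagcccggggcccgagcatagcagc

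Of the 14 H2A genes, 12 read below BMI1 Ctrl with both BMI1 hairpins and 13 below FAL-1 Ctrl with both FAL-1 hairpins, and no H2A gene was above with both. The class medians were -0.38 for BMI1 and -0.55 for FAL-1. H2AC15 had the lowest mean of all members with FAL-1 knockdown. It read 9.50 and 8.97 in BMI1 shRNA cells, against 9.95 in BMI1 Ctrl, and 9.32 and 8.17 in FAL-1 shRNA cells, against 10.06 in FAL-1 Ctrl. All 4 knockdown arrays lay below both controls. The FAL-1 change of -1.32 ± 0.82 (SD, n = 2 hairpins) is 2.49-fold lower, with an unadjusted limma p of 0.0664 and an adjusted p of 0.9991. A left-out probe set that lists both H2BC15 and H2AC15 had smaller mean changes, -0.17 for BMI1 and -0.46 for FAL-1. In it BMI1 hairpin 1 was not below BMI1 Ctrl, with a change of 0.02.

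H2AC14 read 7.74 and 7.52 with the BMI1 hairpins against 8.52 in BMI1 Ctrl, and 8.73 and 6.96 with the FAL-1 hairpins against 8.85 in FAL-1 Ctrl. H2AC8 read 7.97 and 7.53 against 8.54 for BMI1, and 8.66 and 7.45 against 8.89 for FAL-1. In both genes the BMI1 hairpins were close to each other, while FAL-1 hairpin 1 was above BMI1 Ctrl and FAL-1 hairpin 2 was the lowest array. The mean changes were -0.89 ± 0.16 and -1.01 ± 1.25 for H2AC14 and -0.79 ± 0.31 and -0.84 ± 0.85 for H2AC8 (SD, n = 2 hairpins each). H2AC16 read 8.28 and 8.06 against 8.67 for BMI1, and 8.42 and 7.65 against 8.81 for FAL-1, with all knockdown arrays below both controls. H2AC4 read 8.50 and 7.76 against 8.52 for BMI1, and 8.96 and 7.75 against 9.30 for FAL-1, so BMI1 hairpin 1 did not separate from its control. The remaining H2A means ranged from -0.49 for H2AC21 to 0.12 for H2AC11 with BMI1 knockdown.

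**Figure D3:**
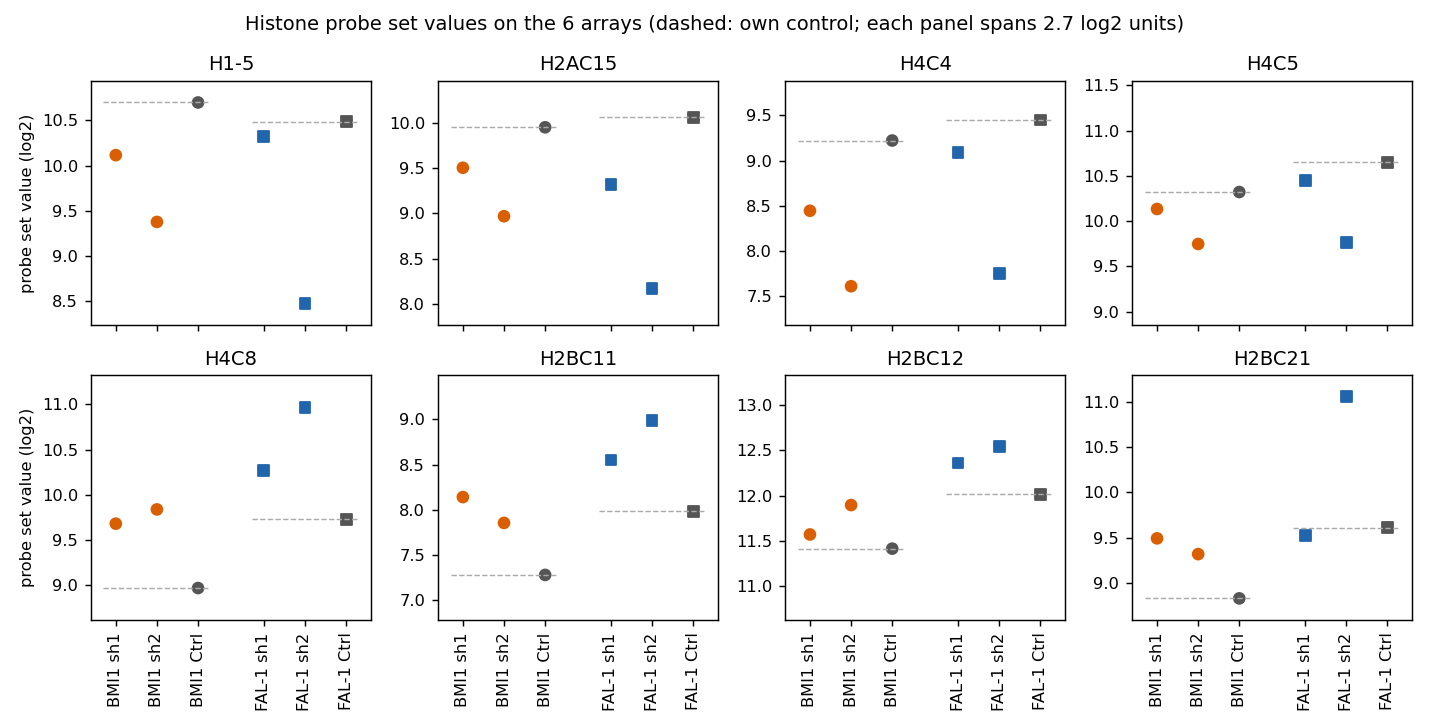
Probe set value (log2) on each of the 6 arrays for 8 histone genes (points, 1 per array), with hairpins before their own control and a dashed line at each control. Each panel spans the same range of 2.7 log2 units, so distances from the dashed lines can be compared between panels, but levels cannot be compared between genes. H1-5, H2AC15, H4C4 and H4C5 lie below the line of their own control on all 4 knockdown arrays, and H4C8, H2BC11 and H2BC12 above it.

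H2B was the most mixed class. With BMI1 knockdown 9 of 16 H2B genes were below the control with both hairpins and 4 were above with both, and with FAL-1 knockdown 9 were below and 2 above. H2BC7 had the lowest H2B mean for both targets. It read 9.68 and 8.81 with the BMI1 hairpins against 9.87 in BMI1 Ctrl, and 10.24 and 8.76 with the FAL-1 hairpins against 10.61 in FAL-1 Ctrl, so each hairpin 2 lay much further below its control than hairpin 1 did. The mean changes were -0.63 ± 0.61 and -1.11 ± 1.05 (SD, n = 2 hairpins each).

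H2BC11 ran the other way. It read 8.14 and 7.86 in BMI1 shRNA cells, against 7.28 in BMI1 Ctrl, and 8.55 and 8.99 in FAL-1 shRNA cells, against 7.98 in FAL-1 Ctrl. Every hairpin was above its own control, but BMI1 hairpin 2 was below FAL-1 Ctrl. The log2 changes were 0.72 ± 0.20 and 0.79 ± 0.31 (SD, n = 2 hairpins each), with unadjusted limma p of 0.0407 and 0.0305 and adjusted p of 0.9999 and 0.9991. An unadjusted p under 0.05 in this direction was seen in 1.01% of all probe sets for BMI1 and 1.52% for FAL-1. Against the other target's control the changes were 0.01 for the BMI1 hairpins and 1.49 for the FAL-1 hairpins.

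H2BC12 read 11.57 and 11.90 with the BMI1 hairpins against 11.41 in BMI1 Ctrl, and 12.36 and 12.54 with the FAL-1 hairpins against 12.01 in FAL-1 Ctrl. H2BC21 read 9.49 and 9.32 against 8.83 for BMI1, and 9.52 and 11.06 against 9.61 for FAL-1. H2BC12 was above its own control on all 4 knockdown arrays, while H2BC21 was above it on 3, and its FAL-1 hairpins lay on opposite sides of FAL-1 Ctrl. The mean changes were 0.32 ± 0.23 and 0.44 ± 0.13 for H2BC12 and 0.58 ± 0.12 and 0.68 ± 1.09 for H2BC21 (SD, n = 2 hairpins each). Against FAL-1 Ctrl, the BMI1 hairpins were lower in both genes, by means of -0.28 and -0.21. Left-out probe sets that list H2BC21 among several symbols did not show its rise. Their mean changes for BMI1 and FAL-1 were -0.02 and 0.04 in one, and -0.18 and -0.20 in another. A left-out probe set that lists H2BC12 with H2BC12L, H2BC17 and H2BC5 had mean changes of -0.03 for BMI1 and 0.22 for FAL-1. H2BC5 read 7.84 and 7.52 against 7.97 for BMI1, and 8.42 and 8.16 against 8.21 for FAL-1. H2BC1, a testis H2B, read 5.31 and 5.41 against 5.59 for BMI1, and 5.65 and 5.42 against 5.52 for FAL-1, where the sign of the small FAL-1 mean change turned under quantile and cyclic loess normalization.

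Many H2A and H2B genes stand head to head and share a promoter region. The octamer ATTTGCAT, bound by OCT1 at H2B promoters, was found on either strand in 13 of 16 H2B windows and 10 of 13 H2A windows, in none of the H1, H3 or H4 windows, and in 1.77% of all windows. In 9 pairs the H2A and H2B windows overlapped by 253 to 286 bases, so an octamer of 1 gene can then be counted for both. Both genes of a pair lay on the same side of the control in 6 and 5 of 9 pairs with BMI1 hairpins 1 and 2, and in 6 and 7 of 9 with FAL-1 hairpins 1 and 2. With each hairpin, 46 to 52 of the 57 members were below the control, so unpaired members would often agree too. Pairs were not compared with unpaired members, so these counts do not show whether pairs move together.

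Read by 1-symbol probe sets, the pair of H2BC21 and H2AC20 on chromosome 1 lay furthest apart with 3 of the 4 hairpins. H2BC21 differed by 0.66 and 0.49 under BMI1 knockdown and by -0.09 and 1.45 under FAL-1 knockdown. H2AC20 differed by -0.12 and -0.63 and by -0.13 and -0.94. A left-out probe set that lists H2AC20 among several symbols had smaller mean changes, -0.08 for BMI1 and -0.03 for FAL-1. The left-out ones that list H2BC21 did not show its rise. In the pair of H2BC11 and H2AC11, H2BC11 was 0.57 and 1.01 above FAL-1 Ctrl, and H2AC11 stood at 0.09 and -0.26. Under BMI1 knockdown H2BC11 differed by 0.86 and 0.58, and H2AC11 by 0.30 and -0.07. Both genes of this pair were above the control with hairpin 1 of each target and on opposite sides of it with hairpin 2. By their 1-symbol probe sets, H2BC21 and H2BC11 lay on the opposite side of the control from their H2A partners with some hairpins. For that reason the 120 bases before the starts of H2BC21, H2AC20 and H2BC11 are shown. They lie at chr1:149886683-149886802 (minus strand), chr1:149886798-149886917 (plus strand) and chr6:27132796-27132915 (minus strand) of GRCh38.p14. Capitals mark the octamer, TATAAA, and the H4 element GGTCCG or its reverse complement CGGACC.
H2BC21: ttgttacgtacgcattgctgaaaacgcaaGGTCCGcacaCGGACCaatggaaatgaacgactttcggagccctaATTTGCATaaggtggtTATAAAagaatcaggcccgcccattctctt
H2AC20: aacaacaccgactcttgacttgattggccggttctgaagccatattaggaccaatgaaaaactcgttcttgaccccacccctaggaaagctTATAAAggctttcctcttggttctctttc
H2BC11: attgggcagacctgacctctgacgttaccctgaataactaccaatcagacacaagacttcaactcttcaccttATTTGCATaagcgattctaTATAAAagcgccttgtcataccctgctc

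H2BC11 and H2BC21 both hold the octamer and then TATAAA, the TATA box. In H2BC21 the reverse complement of the H4 element overlaps a CCAAT. The TATA box was found in 34 of 52 histone windows, beside 11.5% of all windows, and the CCAAT box in 44 of 52, beside 34.6%. The letters show what is in the windows and were not linked to the array values by any test.

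Of the 8 H3 genes, 7 were below the control with both hairpins of each target, and H3C10 was the exception for both. All 8 were lower with hairpin 2 than with hairpin 1 of either target. The class medians were -0.27 for BMI1 and -0.65 for FAL-1. H3C12 read 6.75 and 6.65 with the BMI1 hairpins against 6.89 in BMI1 Ctrl, and 6.93 and 6.70 with the FAL-1 hairpins against 7.42 in FAL-1 Ctrl. FAL-1 Ctrl was the highest array and FAL-1 hairpin 1 was close to BMI1 Ctrl. The FAL-1 change was -0.61 ± 0.16 (SD, n = 2 hairpins), with an unadjusted limma p of 0.0171 and an adjusted p of 0.9991. H3C12 and H1-6 were the 2 of 57 members lower with an unadjusted p under 0.05 for FAL-1, beside 1.5% of all probe sets. For BMI1 no member was, beside 1.57%. H3C11 and H3C10, chosen after their values were seen as the lowest and highest H3 means with BMI1 knockdown, differed by -0.64 ± 0.51 and 0.04 ± 0.27 under BMI1 knockdown and by -0.71 ± 0.60 and -0.05 ± 0.24 under FAL-1 knockdown. A left-out probe set that lists both H3C11 and H3C6 had mean changes of 0.41 for BMI1 and 0.27 for FAL-1, opposite in sign to those of H3C11.

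Of the 13 H4 genes, 9 were below BMI1 Ctrl with both hairpins and 12 below FAL-1 Ctrl with both, and H4C8 was above the control with both hairpins of each target. H4C4 had the lowest mean of all members with BMI1 knockdown. It read 8.45 and 7.61 in BMI1 shRNA cells, against 9.22 in BMI1 Ctrl, and 9.09 and 7.75 in FAL-1 shRNA cells, against 9.45 in FAL-1 Ctrl. The BMI1 change was -1.19 ± 0.59 (SD, n = 2 hairpins), 2.29-fold lower, with an unadjusted limma p of 0.140. H4C2 read 8.81 and 7.92 against 9.30 for BMI1, and 8.95 and 7.81 against 9.44 for FAL-1. In both genes each knockdown array was below both controls and each hairpin 2 was the lower of its pair. A left-out probe set that lists both H4C15 and H4C14 had changes of 0.48 and 0.50, opposite in sign to the -0.38 and -0.82 of the 1-symbol probe sets of these genes.

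H4C8 was the 1 H4 gene with higher readings throughout. It read 9.68 and 9.84 with the BMI1 hairpins against 8.97 in BMI1 Ctrl, and 10.27 and 10.97 with the FAL-1 hairpins against 9.73 in FAL-1 Ctrl. The changes were 0.79 ± 0.11 and 0.89 ± 0.49 (SD, n = 2 hairpins each), with unadjusted limma p of 0.0637 and 0.0447. It was the only member at least 1.5-fold above the control with both BMI1 hairpins, beside 0.545% of all probe sets, and none was with both FAL-1 hairpins, beside 0.576%. BMI1 hairpin 1 was below FAL-1 Ctrl, and against the other target's control the mean changes were 0.03 for BMI1 and 1.65 for FAL-1.

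H4 promoters carry an H4 element, searched as GGTCCG on both strands. It was present in 10 of 11 H4 windows, with H4C7 the exception, in 13 of 52 histone windows and in 11.3% of all windows. The promoter of H4C8 was compared with those of the other H4 genes, because H4C8 was set apart by its values. Over the 100 bases before the start, with a shift of up to 5 bases, 78 were identical to H4C5, second only to H4C14 and H4C15 at 100, where the 55 pairs had a median of 41. H4C5 nevertheless read 10.13 and 9.75 with the BMI1 hairpins against 10.32 in BMI1 Ctrl, and 10.45 and 9.76 with the FAL-1 hairpins against 10.65 in FAL-1 Ctrl, opposite in sign to H4C8. The 120 bases before their starts lie at chr6:26285535-26285654 (minus strand) and chr6:26204490-26204609 (plus strand) of GRCh38.p14, with the H4 element in capitals.
H4C8: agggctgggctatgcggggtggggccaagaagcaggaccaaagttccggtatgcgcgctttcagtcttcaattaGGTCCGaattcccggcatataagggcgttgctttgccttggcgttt
H4C5: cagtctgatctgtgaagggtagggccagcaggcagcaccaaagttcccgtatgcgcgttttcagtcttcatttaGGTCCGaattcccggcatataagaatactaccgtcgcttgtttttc

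Position along the chromosomes was compared over 6 blocks split at gaps over 500 kb between neighbouring members. The block from H2BC11 to H2AC12 on chromosome 6, with 5 members, had medians of 0.12 for BMI1 and -0.09 for FAL-1. The neighbouring blocks had -0.29 and -0.54 (31 members, H2AC1 to H4C8) and -0.38 and -0.61 (13 members, H2BC13 to H2BC17). Chromosome 1 members gave -0.38 and -0.67 over 5 members and -0.18 and -0.35 over 2, and H4C16 on chromosome 12 gave -0.30 and -0.24. The block from H2BC11 to H2AC12 holds both H2BC11 and H2BC12, and its other 3 members, H2AC11, H4C9 and H2AC12, ranged from -0.20 to 0.12 with BMI1 knockdown.

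**Figure D4:**
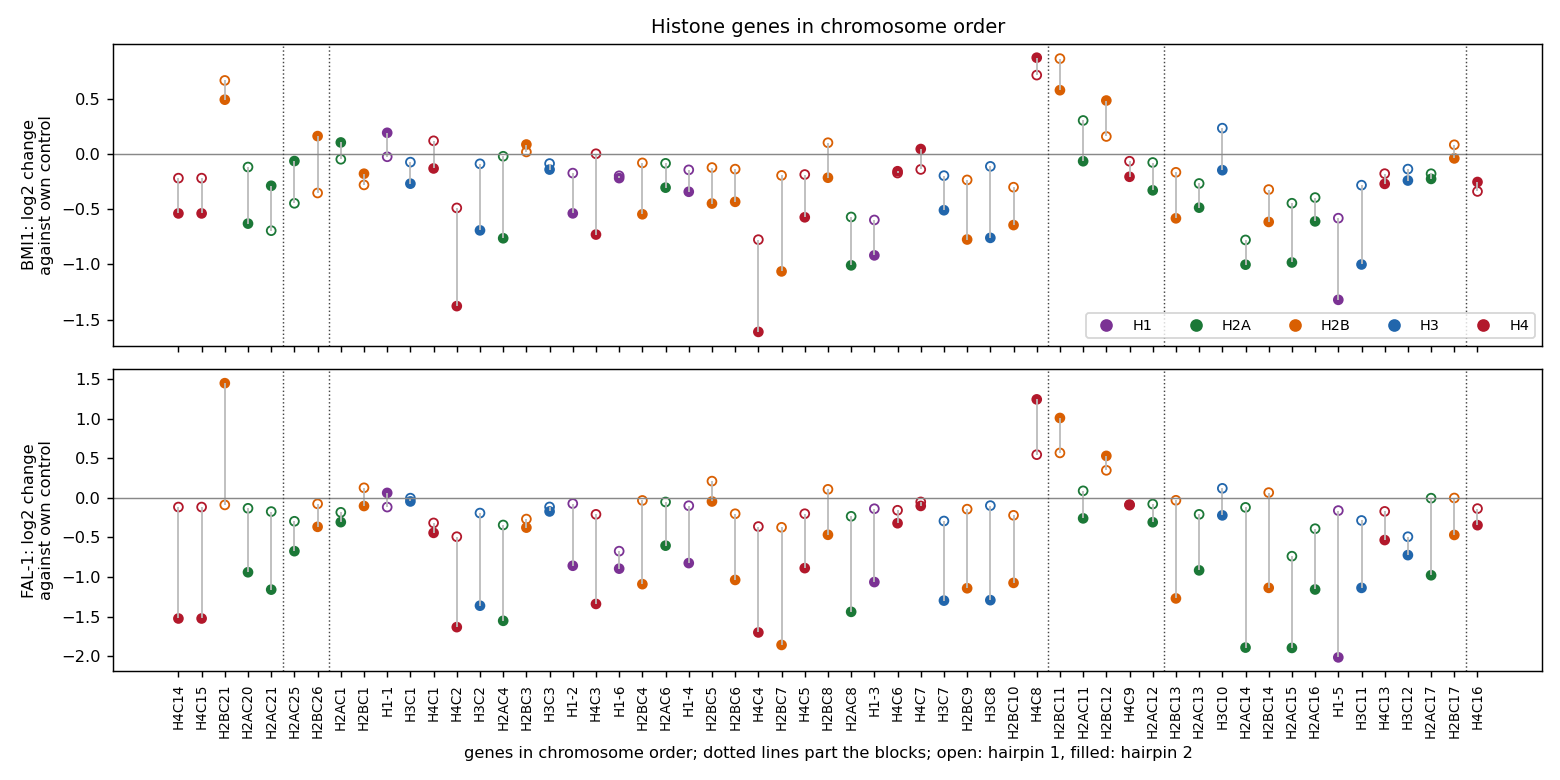
Log2 change of the 57 histone probe sets against the own control, in chromosome order, for BMI1 knockdown (upper panel) and FAL-1 knockdown (lower panel), with hairpin 1 open and hairpin 2 filled and dotted lines between blocks. The 5 genes from H2BC11 to H2AC12 have medians of 0.12 and -0.09, while the medians of the other 5 blocks lie below 0.

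The factors that make histone messages were then set beside the histones, with each listed gene read by its probe set of highest mean level. Of 12 measured genes for histone transcription and the locus body, 7 were below BMI1 Ctrl with both hairpins and 2 above it, and 6 were below FAL-1 Ctrl and 4 above it. NPAT, the transcriptional coactivator, differed from its control by -0.35 and -0.38 under BMI1 knockdown and by -0.05 and -0.21 under FAL-1 knockdown. CASP8AP2 differed by -0.27 and -0.56 and by -0.24 and -0.62. CCNE2, a cyclin that acts with CDK2, differed by -0.58 and -1.01 and by -0.34 and -1.90, and CDK2 by -0.31 and -0.60 and by 0.05 and -1.08. E2F1, a transcription factor at S phase promoters, differed by -0.17 and -0.08 and by -0.23 and -0.70. HINFP, a factor that binds H4 promoters, ran the other way, with differences of 0.02 and 0.18 for BMI1 and 0.01 and 0.25 for FAL-1. In CASP8AP2, CCNE2, CDK2 and E2F1, FAL-1 hairpin 2 had the lowest value of the 4 hairpins.

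Of 16 measured genes for 3′ processing and translation of histone messages, 11 were below BMI1 Ctrl with both hairpins and 1 above it, and 7 were below FAL-1 Ctrl and 1 above it. SLBP, the stem-loop binding protein, differed by -0.29 and -0.36 under BMI1 knockdown and by 0.07 and -0.06 under FAL-1 knockdown; the FAL-1 values lie close to 0. CPSF3, the endonuclease that cuts histone pre-mRNA, differed by 0.02 and -0.29 and by -0.26 and -1.13. Of 12 genes for histone mRNA decay, 4 were below BMI1 Ctrl with both hairpins and 3 above it, and 7 were below FAL-1 Ctrl and 3 above it. TUT7, which adds uridines to the message, read 0.33 and 0.36 above BMI1 Ctrl and 0.12 and 0.56 above FAL-1 Ctrl. UPF1, a helicase of this decay, differed by -0.09 and -0.19 for BMI1 and by 0.29 and 0.59 for FAL-1.

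Histone chaperones and importers, which carry new histones to DNA, were below the control with both hairpins in 14 of 18 genes for BMI1 and 13 of 18 for FAL-1, and above it in 1 and 2. ASF1B differed by -0.58 and -0.81 under BMI1 knockdown and by -0.03 and -1.45 under FAL-1 knockdown. CHAF1B, a subunit of chromatin assembly factor 1, differed by -0.47 and -0.66 and by -0.25 and -1.35, and MMS22L by -0.62 and -0.91 and by -0.30 and -1.82. Each was lower with the second hairpin, as most core histones were.

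Among 15 measured genes listed as replication-independent histones, 12 were below BMI1 Ctrl with both hairpins and 2 above it. For FAL-1, 7 were below FAL-1 Ctrl with both hairpins and 4 above it. The medians were -0.11 for both targets, beside -0.29 and -0.54 for the replication-dependent members. H3-3B differed by -0.17 and -0.31 under BMI1 knockdown and by -0.06 and -0.10 under FAL-1 knockdown, and H2AX by -0.38 and -0.60 and by -0.10 and -0.12. H2AZ1 differed by -0.55 and -0.23 and by 0.11 and -0.51, and H2AJ by -0.15 and -0.16 and by -0.05 and -0.27. H1-10 differed by -0.48 and -0.47 and by -0.26 and -0.39. H3-3A has no 1-symbol probe set here.

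Genes of S phase and mitosis were mostly lower on the same arrays as the histones. By the brightest probe set of each, all 29 measured S phase genes were below BMI1 Ctrl with both hairpins, with medians of -0.40 and -0.59. A second, dimmer probe set of UHRF1 was not, at 0.10 and -0.02. By the same probe sets, 18 of 29 were below FAL-1 Ctrl with both, with medians of -0.02 and -1.07. The 18 mitosis genes were below in 18 and 12, with medians of -0.41 and -0.71 and of -0.07 and -1.38. Between the controls these lists differed from the histones. FAL-1 Ctrl read above BMI1 Ctrl in 9 of 29 S phase genes and 1 of 18 mitosis genes, against 48 of 57 histone members. The median differences were -0.08, -0.18 and 0.26. MKI67, a proliferation marker, read 10.65 and 10.37 with the BMI1 hairpins against 11.09 in BMI1 Ctrl, and 10.92 and 9.29 with the FAL-1 hairpins against 10.69 in FAL-1 Ctrl. Of 11 p53 target genes, 11 were above BMI1 Ctrl and 10 above FAL-1 Ctrl with both hairpins. The part of these genes in the histone values was not tested. No gene of these lists had an adjusted limma p under 0.05.

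The difference between the BMI1 and FAL-1 changes was fitted for each member. No member had an unadjusted limma p under 0.05 for it, beside 0.807% of all probe sets, and the adjusted p was 0.9999 throughout. H1-6 came nearest, with a difference of 0.57 and an unadjusted limma p of 0.0529, followed by H2BC3 and H3C12. Near-identical histone paralogs may share probes, so a value for a single gene is uncertain. Members brighter than the median level (40 of 57) had medians of -0.38 for BMI1 and -0.59 for FAL-1, against -0.17 and -0.24 in the 17 at or under it.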

How the data were processed

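Per the labels' protocols, total RNA of 6 A2780 samples was amplified, labelled and read on Affymetrix arrays of 1 colour. The authors deposited log2 values per probe set, and RMA is named per the submitters' processing notes; no version of it and no genome build of the array were found in the labels. Members and gene lists were chosen with earlier results of these data known. Probe sets with exactly 1 symbol, plus that of BMI1 and COMMD3-BMI1, gave 19461 tested; 12038 were unnamed and 1754 had several symbols. Groups followed the labels. A limma 3.58.1 fit (R 4.3.3) took 4 group means, with two-sided moderated tests and Benjamini-Hochberg adjustment over all probe sets. A change is the hairpin minus its own control, on the log2 scale. The smallest exact permutation p for 1 against 2 arrays is 0.333, so none was used. Named members were, for each target, up to 6 lowest and up to 6 highest by the smaller hairpin change among those on the same side of the control with both hairpins (5 were higher for BMI1 and 3 for FAL-1), the 4 largest differences between targets in each direction, all H1 genes, H2BC11, H4C8 and H2AC15. From the lists, the text gives a part of the genes that the rule names: fixed genes, and up to 3 in each direction. Figures and counts used Python 3.11.15. Precision is limited by the number of arrays. The fit was tested on simulated data. Alternatives were other control arrays, filters, normalizations, priors, the hairpin number as a block and leaving out each hairpin.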

Additional observations from a re-analysis of the deposited data

Results flagged for a closer look

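H2BC3 was singled out because both BMI1 hairpins read above BMI1 Ctrl and both FAL-1 hairpins below FAL-1 Ctrl. It read 5.68 and 5.74 in BMI1 shRNA cells, against 5.66 in BMI1 Ctrl, and 5.99 and 5.88 in FAL-1 shRNA cells, against 6.26 in FAL-1 Ctrl. The BMI1 change minus the FAL-1 change was 0.37, which did not pass limma's test (unadjusted p = 0.116, adjusted p = 0.9999). FAL-1 Ctrl was the highest of the 6 arrays, and this dim probe set lies under the median level.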

How the results depend on the processing

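No probe set passed limma's adjusted p of 0.05 in the main fit or in any of the 13 other fitted settings for either knockdown or for their difference, with unadjusted p under 0.05 for 195 to 1245 probe sets for BMI1, 281 to 2020 for FAL-1 and 31 to 2229 for the difference. The other target's control moved the BMI1 histone median to -0.55 and the FAL-1 one to -0.10, and changed the sign of 7 and 13 of the 57 members. Hairpin numbers pair nothing in the labels, and the hairpin 1 minus hairpin 2 differences of both targets correlated at 0.28 across probe sets; the replicate block gave medians of -0.083 for BMI1 and -0.25 for FAL-1, where controls take the level of hairpin 1, and changed the sign of 12 and 4 members, leaving 37 lower and 20 higher for BMI1. Leaving out 1 hairpin gave -0.34 to -0.17 for BMI1 and -0.89 to -0.13 for FAL-1. Pooled controls gave -0.41 and -0.30, quantile normalization -0.27 and -0.52, and cyclic loess -0.29 and -0.50. Chosen after seeing the data, distinct readings gave -0.29 and -0.51, leaving out chromosome 12 and testis genes -0.33 and -0.54, and adding the several-symbol probe sets -0.21 and -0.47. Of 44 values of named members, 21 moved by more than the hairpin spread with the other target's control, 13 with pooled controls, 12 with the block, and 1 each with quantile and cyclic loess normalization. The cause was not tested.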

Other observations

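Some replication-dependent histone genes are known to give polyadenylated messages too, among them H2BC12, H2BC21, H2BC5, H2AC6 and H1-2, a grouping chosen after the values were seen. With BMI1 knockdown, H2BC12 and H2BC21 were above the control with both hairpins, and H2BC5, H2AC6 and H1-2 below it with both, by means of -0.29, -0.20 and -0.36. With FAL-1 knockdown, H2AC6 and H1-2 had means of -0.33 and -0.47, and H2BC5 of 0.08. H2BC12 and H2BC21 had means of 0.44 and 0.68, with the H2BC21 hairpins at -0.09 and 1.45. The means of these 5 genes had both signs under each knockdown. The part of polyadenylation in these values was not tested.

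The probe sets left out for listing several symbols gave 17 distinct readings. With BMI1 knockdown 10 were below the control with both hairpins and 3 above, with a median of -0.13, and with FAL-1 knockdown 8 were below and 4 above, with a median of -0.26. One that lists H4C15 and H4C14 read 9.32 and 9.05 with the BMI1 hairpins against 8.71 in BMI1 Ctrl, and 9.84 and 10.52 with the FAL-1 hairpins against 9.68 in FAL-1 Ctrl. The 1-symbol probe sets of H4C14 and H4C15 had mean changes of -0.38 and -0.82, so probe sets of these genes disagree in sign. The probe set for H3C11 and H3C6 was also higher with both targets, by 0.41 and 0.27, opposite in sign to the -0.64 and -0.71 of the 1-symbol probe set of H3C11. The probe set for H3C4 and H2AC7 was lower, by -0.75 and -1.15.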
